A study of Homo sapiens with 6 samples.

Results

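The genes described here build the machinery that copies DNA: 44 of the 60675 genes in the deposited count table, chosen by gene symbol. They were divided by role into 16 genes of origin licensing and the replicative helicase, 20 genes of the polymerases, sliding clamp and their partners, 5 genes of nucleotide supply and 3 genes of chromatin assembly behind the fork. RNA was sequenced from HCT116 cells, a long-established line from a human colorectal carcinoma that carries a wild-type genotype label in 2 of the groups, with 3 groups of 2 libraries in all. The first group was untreated. The other groups were treated: the second received SP2509, a compound known to inhibit LSD1, a histone demethylase, at 3 uM for 48 h. In the third group PIR, which encodes the nuclear iron-binding protein Pirin, was knocked down transiently with small interfering RNA for 48 h (siPIR). The study's title concerns repression of the telomerase gene by SP2509, and the comparisons ask what the compound and the knockdown do to the rest of the transcriptome.

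Several points limit these groups as models. SP2509 also appears as the treatment in the labels of the siPIR samples, although only the knockdown is in their titles, and whether those cells received the compound too is not known. No library is labelled as having a non-targeting siRNA. The protocol mentions DMSO, and the labels leave unclear whether the untreated cells were given it. Nothing in the labels says that the 2 libraries of a group came from separate cultures, so the p-values reflect only how far these libraries differ, and that spread may be technical.

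Before S phase, the origin recognition complex (ORC), CDC6 and CDT1 load the MCM2 to MCM7 ring onto DNA, and CDC45 and the GINS complex later join the ring to form the active helicase. Polymerase alpha-primase then lays down primers, replication factor C (RFC) loads the sliding clamp PCNA, and polymerases delta and epsilon extend the strands. In proliferating cells many of these genes are transcribed together under E2F factors as cells enter S phase.

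All 44 genes were matched by symbol and all 44 passed the filter on low counts, with a lowest untreated level of 9.52 CPM (the count relative to the library size, here with TMM scaling by edgeR) and a lowest count of 6 in any library. Library totals ran from 22622441 to 28816590 counts. Mean GC content of the transcripts, weighted by counts, was 48.7% and 48.5% in the untreated libraries, 48.3% and 48.5% with SP2509, and 42.3% and 42.8% in the siPIR libraries. Untreated levels per kilobase of the longest transcript were highest for PCNA (110 RPKM), TK1 (103 RPKM), MCM7 (82.8 RPKM) and TYMS (73.0 RPKM), and lowest for GINS3 (3.58 RPKM), POLD3 (3.71 RPKM) and POLA2 (4.35 RPKM). The share of counts from mitochondrially encoded ribosomal RNA was 6.33% and 6.93% with SP2509 against 1.14% to 1.63% in the other libraries. Of 7 epithelial marker genes, 6 stood above 1 CPM in all 6 libraries. The exception was CLDN3, at 0.104 and 0.104 CPM in the siPIR libraries and 21.6 and 22.5 CPM in the untreated ones. Below 1 CPM in all 6 libraries were 6 of 7 fibroblast markers, 5 of 6 leukocyte markers and 3 of 4 endothelial markers. The fibroblast exception, COL1A1, stood at 22 and 24.8 CPM untreated, 21.8 and 20.6 CPM with SP2509 and 1.15 and 1.56 CPM with siPIR, and its part in the results was not tested.

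The promoters of these genes share letters that E2F factors are known to bind. The 5 windows shown are those with such letters before the RefSeq start and clear of annotated exon bases. RefSeq promoters on GRCh38.p14, from 250 bases before to 50 bases after each start, were found for 38 of the 44 genes. The E2F letters searched were TTTCCCGC, TTTGGCGC, TTTCGCGC and TTTGCCGC on either strand, with overlapping matches allowed. They occurred in 19 of the 38 promoters (50%) and in 1090 of the 27305 genes in the table (3.99%). By role they occurred in 9 of 13 licensing and helicase genes, 7 of 17 polymerase and clamp genes, 2 of 5 nucleotide supply genes and 1 of 3 chromatin assembly genes. The letters CCAAT, also on either strand, were in 23 of 38 promoters (60.5%) against 39.7% of all. TTTGAA or TTCGAA, the letters of the cell cycle homology region, were in 3 of 38 (7.89%) against 19.5% of all. A match describes the sequence and does not show that a factor binds there. Capitals mark the E2F letters, each window runs 5′ to 3′ on the strand of its gene, and none holds an annotated exon base.
MCM3: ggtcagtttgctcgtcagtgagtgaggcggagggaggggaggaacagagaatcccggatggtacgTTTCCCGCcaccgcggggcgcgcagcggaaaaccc
MCM6: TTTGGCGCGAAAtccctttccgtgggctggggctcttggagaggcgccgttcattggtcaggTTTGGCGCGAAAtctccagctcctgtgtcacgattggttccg
PCNA: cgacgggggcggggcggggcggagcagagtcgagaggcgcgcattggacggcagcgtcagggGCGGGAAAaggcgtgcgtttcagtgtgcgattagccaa
POLA1: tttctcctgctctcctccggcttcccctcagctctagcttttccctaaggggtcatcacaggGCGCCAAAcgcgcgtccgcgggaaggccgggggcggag
UHRF1: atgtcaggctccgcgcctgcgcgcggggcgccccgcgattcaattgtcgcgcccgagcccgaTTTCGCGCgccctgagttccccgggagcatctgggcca

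The genes the results turn on lie, in GENCODE 29 on GRCh38, at chr2:135839626-135876426 (MCM6), chr22:35400063-35425430 (MCM5), chr17:40287633-40304657 (CDC6), chr16:88803213-88809258 (CDT1), chr20:5114953-5126626 (PCNA), chrX:24693919-24996986 (POLA1), chr19:50384204-50418016 (POLD1), chr18:657604-673578 (TYMS) and chr19:4903080-4962154 (UHRF1). The windows lie at chr6:52284882-52284981 on the minus strand (MCM3), chr2:135876492-135876595 on the minus strand (MCM6), chr20:5126644-5126743 on the minus strand (PCNA), chrX:24693719-24693818 on the plus strand (POLA1) and chr19:4909922-4910021 on the plus strand (UHRF1). The UHRF1 window lies inside the span of its gene, between exons of transcripts that GENCODE starts further upstream, and the other windows lie outside the spans of theirs. In the MCM6 window each run of capitals holds 2 overlapping matches, TTTGGCGC and the reverse complement of TTTCGCGC, so that 4 matches stand between bases -152 and -49 from the start. MCM3, MCM6, POLA1 and UHRF1 fell with SP2509 and PCNA rose, so genes carrying these letters moved in both directions.

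SP2509 was accompanied by lower RNA of most replication genes. By edgeR's quasi-likelihood test with Benjamini-Hochberg adjustment over 16503 genes, 36 of the 44 genes fell and 5 rose at an adjusted p below 0.05, and ORC1, RFC4 and RPA2 did not pass. Over all genes tested, 35.1% fell and 33.5% rose. More than 2-fold decreases were called for 20 of the 44 genes, against 17.9% of all genes. The median log2 fold change was -0.82 for the replication genes and -0.04 for all genes. When the estimated trend of each library on GC content and length was subtracted, 36 genes were lower (34.5% of all genes) and 6 higher (38.2%), with a median of -0.74. The summed level of the 44 genes was 3310 and 3100 CPM in the untreated libraries and 2160 and 2100 CPM with SP2509. In bulk RNA, fewer cells in S phase and less RNA per cell cannot be told apart. The plot of levels in the 4 libraries shows the 2 groups gene by gene.

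**Figure D1:**
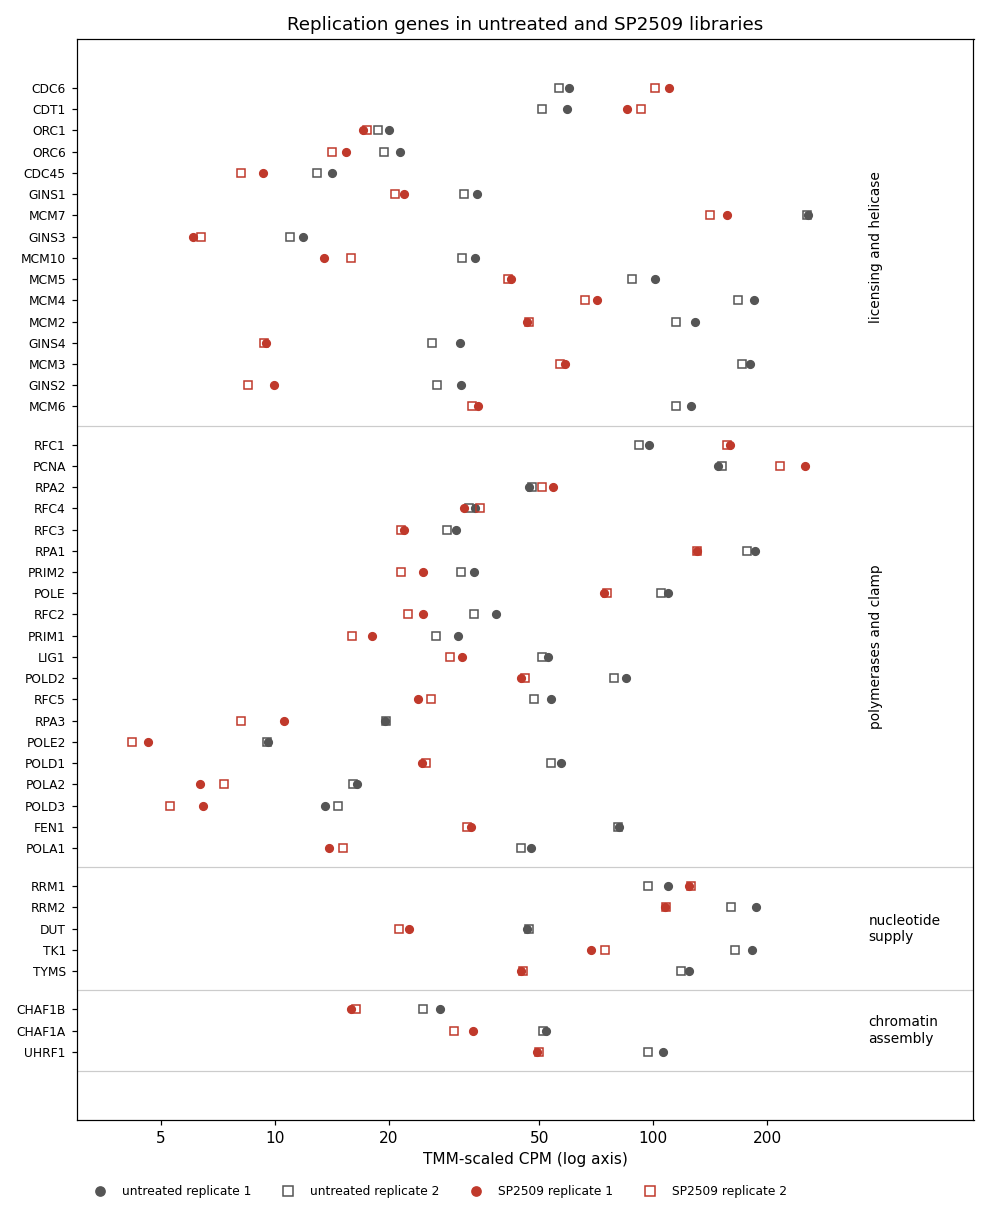
TMM-scaled CPM (log axis) of the 44 replication genes in the 2 untreated (grey) and 2 SP2509 (red) libraries, filled circles for replicate 1 and open squares for replicate 2, sorted within each role by fold change. Red points lie left of the grey ones for most genes, and to the right for CDC6, CDT1, RFC1, PCNA, RRM1 and RPA2, of which RPA2 did not pass the threshold.

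The helicase ring and its activators fell together. MCM6 stood at 126 and 115 CPM in the untreated libraries and 34.4 and 33.1 CPM with SP2509, a log2 fold change of -1.83 ± 0.10 (± SE; adjusted p = 1.69e-08). MCM3 stood at 180 and 171 CPM untreated and 58.6 and 56.8 CPM with SP2509 (-1.60 ± 0.10, adjusted p = 2.69e-08). In MCM6 and MCM3 the libraries of a group lay close to each other and far from those of the other group. MCM2 was at 129 and 115 against 46.5 and 47 CPM (-1.39 ± 0.11), and MCM4 at 184 and 167 against 70.8 and 66 CPM (-1.36 ± 0.13). MCM5 was at 101 and 87.9 against 42.2 and 41.3 CPM (-1.18 ± 0.17), and MCM7, the most abundant subunit, at 256 and 255 against 156 and 141 CPM (-0.78 ± 0.10). All 6 subunits of the MCM2 to MCM7 ring therefore fell, with a median log2 fold change of -1.37. Neither SP2509 library reached an untreated one for any of them, as was the case for 37 of the 44 replication genes and for 45% of all genes tested. Per kilobase of the longest transcript, the untreated mean levels of the ring ran from 20.5 RPKM for MCM5 to 82.8 RPKM for MCM7, although the subunits act in equal numbers in the ring.

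GINS, the complex that joins the ring to CDC45, showed the same direction in all 4 subunits. GINS2 stood at 31.1 and 26.8 CPM untreated and 9.94 and 8.5 CPM with SP2509 (-1.65 ± 0.13, adjusted p = 2.93e-07), and GINS4 at 30.8 and 26 and 9.47 and 9.35 CPM (-1.59 ± 0.12, adjusted p = 1.9e-07). GINS1, at 34.2 and 31.7 against 21.9 and 20.8 CPM (-0.63 ± 0.13), and GINS3, at 11.9 and 11 against 6.09 and 6.4 CPM (-0.88 ± 0.14), moved less. CDC45 was at 14.2 and 12.9 against 9.31 and 8.15 CPM (-0.63 ± 0.12). MCM10, which is needed to activate the assembled helicase, was at 33.8 and 31.2 against 13.5 and 15.9 CPM (-1.14 ± 0.17). In each of these 6 genes both SP2509 libraries lay below both untreated ones, as in 45% of all genes tested.

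The loading factors moved the other way. CDC6, the ATPase that recruits the ring to origins, stood at 60 and 56.4 CPM untreated and 110 and 101 CPM with SP2509, a log2 fold change of 0.86 ± 0.10 (adjusted p = 6.33e-06). CDT1, which escorts the ring to the origin, stood at 59 and 50.9 and 85 and 92.6 CPM (0.69 ± 0.12, adjusted p = 0.000207). Both SP2509 libraries lay above both untreated ones for each gene, which was so for 6 of the 44 genes and for 41.9% of all genes, and neither call was lost under any of 19 alternative settings. Of the 2 ORC subunits among these genes, ORC1 was at 20 and 18.7 against 17.1 and 17.5 CPM (-0.16 ± 0.10, adjusted p = 0.196), which did not pass. ORC6 fell from 21.4 and 19.4 to 15.4 and 14.2 CPM (-0.46 ± 0.14, adjusted p = 0.00895). Its call was lost without untreated replicate 1 or without SP2509 replicate 2, and over all settings its log2 fold change lay between -0.85 and -0.38.

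The primer-making enzyme fell as a complex. POLA1, the catalytic subunit of polymerase alpha, stood at 47.5 and 44.7 CPM untreated and 13.9 and 15.2 CPM with SP2509 (-1.66 ± 0.12, adjusted p = 1.66e-07). POLA2, its accessory subunit, was at 16.5 and 16.1 against 6.36 and 7.33 CPM (-1.25 ± 0.14, adjusted p = 6.44e-06). PRIM1, the catalytic primase subunit, was at 30.5 and 26.7 against 18.1 and 16 CPM (-0.74 ± 0.12), and PRIM2, the regulatory subunit, at 33.6 and 31.1 against 24.6 and 21.6 CPM (-0.48 ± 0.11). Thus 4 of 4 subunits were called lower, beside 35.1% of all genes, with larger decreases for the polymerase subunits than for the primase subunits.

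The members of the strand-extending polymerases fell as well, although not every subunit of these enzymes did. POLD1, the catalytic subunit of polymerase delta, stood at 57.2 and 53.7 CPM untreated and 24.5 and 25.1 CPM with SP2509 (-1.16 ± 0.10, adjusted p = 4.53e-07). Its partners POLD2, at 84.5 and 78.8 against 44.8 and 45.7 CPM (-0.85 ± 0.10), and POLD3, at 13.6 and 14.7 against 6.48 and 5.31 CPM (-1.26 ± 0.14, adjusted p = 3.64e-06), fell too. For polymerase epsilon, the catalytic POLE was at 109 and 105 against 74.2 and 75.5 CPM (-0.51 ± 0.091) and the accessory POLE2 at 9.63 and 9.52 against 4.64 and 4.19 CPM (-1.12 ± 0.15). The small subunits outside the 44 genes rose: POLE3 was at 55.2 and 51.8 against 82.1 and 81.2 CPM (0.61 ± 0.093, adjusted p = 7.67e-05) and POLE4 at 4.12 and 3.83 against 5.85 and 6.28 CPM (0.61 ± 0.17, adjusted p = 0.00554). Both calls were lost when libraries were scaled by total counts alone, and that on POLE4 also with upper-quartile scaling and without untreated replicate 2. FEN1, the nuclease that trims the flaps between Okazaki fragments, stood at 81.3 and 80.8 and 32.9 and 32.3 CPM (-1.32 ± 0.094, adjusted p = 1.23e-07). LIG1, the ligase that seals the remaining nicks, was at 52.8 and 50.7 against 31.3 and 29 CPM (-0.78 ± 0.10). Replicates differed little in either gene, and the groups did not overlap.

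The clamp and the large subunit of its loader rose. PCNA stood at 148 and 152 CPM untreated and 252 and 216 CPM with SP2509 (0.64 ± 0.12, adjusted p = 0.000525). RFC1 stood at 97.5 and 91.5 and 159 and 156 CPM (0.74 ± 0.095, adjusted p = 1.72e-05). The groups did not overlap in either gene, and the rise of PCNA missed the threshold when libraries were scaled by total counts alone. The small loader subunits did not rise with RFC1: RFC2 was at 38.5 and 33.6 against 24.6 and 22.5 CPM (-0.61 ± 0.14) and RFC5 at 53.6 and 48.3 against 23.9 and 25.8 CPM (-1.03 ± 0.15), both lower. RFC3 was at 30.2 and 28.6 against 21.9 and 21.5 CPM (-0.44 ± 0.13, adjusted p = 0.0102), a call that was lost without untreated replicate 1 or without either SP2509 library. RFC4 was at 33.8 and 32.5 against 31.6 and 34.8 CPM (0.00 ± 0.10), and its libraries interleaved. In replication protein A (RPA), which coats single-stranded DNA, RPA1 was at 185 and 177 against 130 and 130 CPM (-0.48 ± 0.10) and RPA3 at 19.6 and 19.7 against 10.6 and 8.15 CPM (-1.06 ± 0.13). RPA2, at 46.9 and 47.9 against 54.4 and 50.8 CPM, did not pass (0.15 ± 0.10, adjusted p = 0.193), so the subunits of this complex were not shifted alike.

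Thymidylate supply fell while the large subunit of ribonucleotide reductase did not. TYMS, which makes thymidylate from deoxyuridylate, stood at 124 and 118 CPM untreated and 44.6 and 45.3 CPM with SP2509 (-1.43 ± 0.12, adjusted p = 3.64e-07). TK1, the thymidine salvage kinase, stood at 182 and 164 and 68.3 and 74.5 CPM (-1.28 ± 0.13, adjusted p = 2.95e-06). DUT, which removes dUTP, stood at 46.4 and 46.9 and 22.6 and 21.3 CPM (-1.09 ± 0.15, adjusted p = 4.34e-05). The groups were well apart in all 3 genes. TYMS shares 39.1% of its exon bases with ENOSF1 on the opposite strand, whose highest level was 30.2 CPM, so reads of the pair may have been divided between them. RRM2, the small subunit of ribonucleotide reductase, was at 187 and 160 against 107 and 108 CPM (-0.69 ± 0.12, adjusted p = 0.000306). RRM1, the large subunit, was at 109 and 96.6 against 124 and 126 CPM (0.28 ± 0.10, adjusted p = 0.0214). The rise of RRM1 was small: its call was lost with upper-quartile scaling, without untreated replicate 2 and without either SP2509 library, and with total counts alone its log2 fold change was -0.11.

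The chromatin factors were all lower. UHRF1, which reads hemimethylated DNA and brings DNMT1 to it, stood at 106 and 96.8 CPM untreated and 49.2 and 49.9 CPM with SP2509 (-1.03 ± 0.16, adjusted p = 0.0001). Its call was only just kept when each library's estimated trend on GC content and length was subtracted (-0.93 ± 0.29, adjusted p = 0.0497). CHAF1A, the large subunit of chromatin assembly factor 1, was at 52.1 and 51 against 33.3 and 29.7 CPM (-0.71 ± 0.10, adjusted p = 4.15e-05). CHAF1B, its middle subunit, was at 27.4 and 24.7 against 15.9 and 16.4 CPM (-0.69 ± 0.11, adjusted p = 8.91e-05). The third subunit, RBBP4, which also serves other chromatin complexes and is not among the 44 genes, was at 239 and 241 against 172 and 168 CPM (-0.50 ± 0.10, adjusted p = 0.000596). Apart from ORC6, PCNA, RFC3 and RRM1, no gene of the 41 called with SP2509 lost its call under any of the 19 settings.

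The wider pathway was mixed, and its counts are to be read against the 35.1% of all genes that fell and the 33.5% that rose. Of 21 other genes of origin firing and the fork, 12 fell, 6 rose and 3 did not pass (median log2 fold change -0.37). CDC7, the kinase that fires licensed origins, was at 31.4 and 29.5 against 10.3 and 8.81 CPM (-1.68 ± 0.15), and TICRR, which is needed to load CDC45, at 32.9 and 27 against 9.86 and 9.85 CPM (-1.60 ± 0.13). GMNN, the inhibitor of CDT1, was at 31.5 and 30.6 against 13 and 10.7 CPM (-1.39 ± 0.14), while ORC3 was at 26.3 and 25.6 against 54.8 and 53.6 CPM (1.06 ± 0.11). CDT1 thus rose where its inhibitor fell. Of 15 other polymerase and clamp genes, 6 fell and 4 rose (median -0.13), which is near that background. Among them were CHTF8, of the alternative clamp loader, at 123 and 116 against 26.2 and 29.9 CPM (-2.09 ± 0.11), and POLD4, the smallest polymerase delta subunit, at 3.32 and 3.35 against 8.09 and 9.19 CPM (1.37 ± 0.15). The topoisomerases divided: TOP2A (-0.92 ± 0.10) and TOP2B (-0.95 ± 0.10) fell and TOP1 (0.84 ± 0.10) rose.

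Of 28 other nucleotide genes, 16 fell and 9 rose (median -0.32). SHMT1, which loads folate with carbon units (-1.30 ± 0.10) and the purine synthesis enzymes PFAS (-1.27 ± 0.11) and PAICS (-1.0 ± 0.094) fell. RRM2B, the p53-induced small subunit of ribonucleotide reductase, was at 111 and 117 against 137 and 139 CPM (0.28 ± 0.11, adjusted p = 0.0414), and with total counts alone its log2 fold change was -0.11. Of 10 other chromatin genes, 8 fell and 1 rose (median -0.89), among them the histone chaperones ASF1B (-1.47 ± 0.14) and RBBP7 (-1.78 ± 0.10), the remodeller HELLS (-1.64 ± 0.17) and its partner CDCA7 (-1.42 ± 0.15). DNMT1, the methyltransferase that UHRF1 recruits, was at 226 and 211 against 212 and 208 CPM and did not pass (-0.06 ± 0.10, adjusted p = 0.614). Of 19 E2F and S phase entry genes, 9 fell and 7 rose (median -0.18; with the offset 8 and 8). E2F1, an activating E2F, was at 20.4 and 20 against 18.5 and 17.2 CPM and did not pass (-0.18 ± 0.11, adjusted p = 0.165), E2F2 fell (-1.39 ± 0.16), the repressive E2F7 rose from 21 and 19.8 to 74.2 and 89.6 CPM (2.01 ± 0.13), and RBL2, the pocket protein p130, fell (-1.47 ± 0.12). CDKN1A, the p21 inhibitor of cyclin-dependent kinases, rose from 132 and 125 to 342 and 426 CPM (1.58 ± 0.13).

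**Figure D2:**
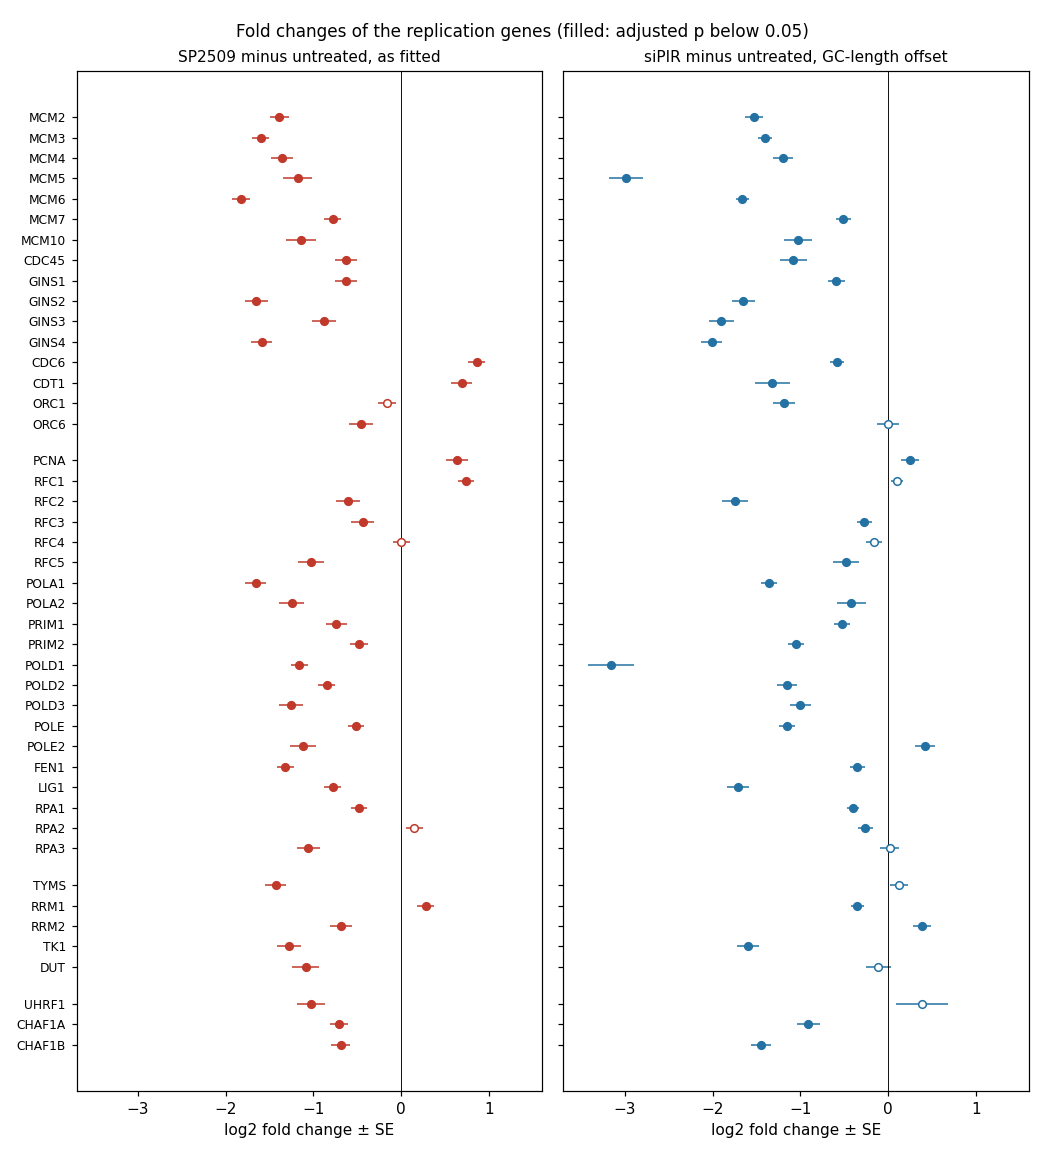
Log2 fold change (± SE, edgeR) of each replication gene against untreated, with SP2509 as fitted (left, red) and with siPIR after the GC-length offset (right, blue), ordered by role. Filled points have an adjusted p below 0.05. The right panel reaches -3.16 for POLD1, and CDC6 and CDT1 lie right of zero in the left panel and left of it in the right one.

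The siPIR libraries held less RNA of the helicase genes, but their levels followed GC content. As fitted, 27 of the 44 genes were called lower and 9 higher than untreated, against 46.9% and 39.3% of all genes tested, so a called difference is the common case in this comparison. The median log2 fold change was -1.01, beside -0.28 for all genes. Across the 44 genes the fold change ran down with the GC content of the transcript (Spearman's rho -0.884), as it did over the 16345 tested genes with a GC value (rho -0.883), where genes of 1 library share their depth and base composition. The 14 members of 35% to 45% GC had a median of 0.23 (1.39 for all genes in that range), and the 10 members of 55% to 66% GC a median of -4.14 (-3.25 for all genes). Values were therefore also taken from a fit with each library's estimated trend on GC content and length subtracted (the GC-length offset). This also takes out any true difference that tracks GC content. With the offset, 34 of the 44 genes were lower (32.4% of all genes), 3 were higher (32.7%) and 7 did not pass, and 22 were lower by more than 2-fold (15.9%). The median was then -0.95, beside -0.04 for all genes, and rho for the 44 genes was -0.347. The plot of fold change on GC content shows both fits.

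**Figure D3:**
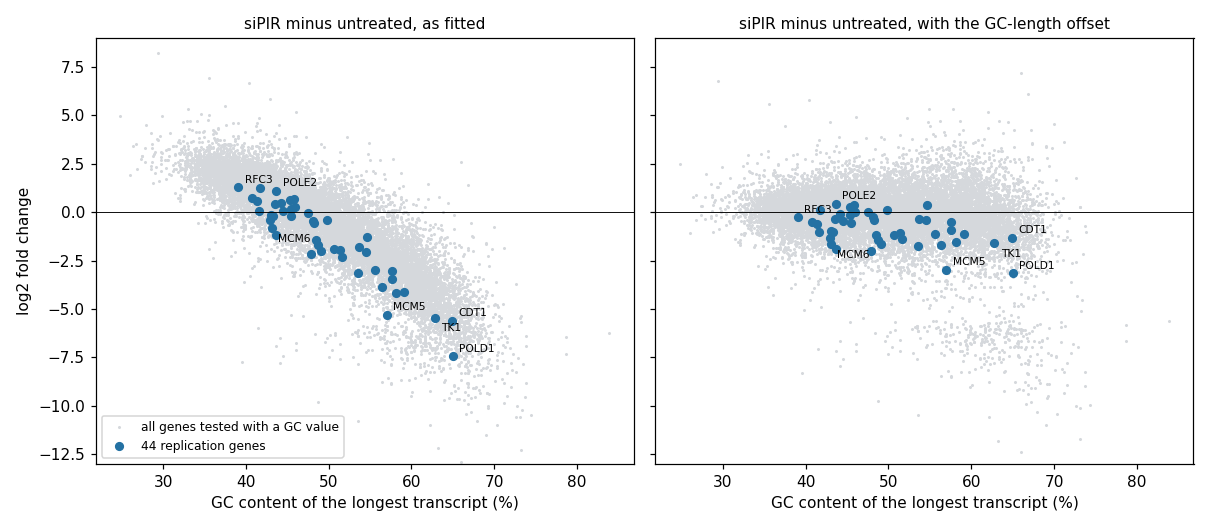
Log2 fold change of siPIR against untreated on the GC content of the longest transcript (%), as fitted (left) and with the GC-length offset (right); grey points are all tested genes with a GC value and blue points the 44 replication genes. The blue points follow the grey slope on the left (rho -0.884) and lie mostly below zero at all GC contents on the right.

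In each GC range the members' median with the offset stood below that of all genes. At 35% to 45% GC the members' median was -0.56, beside 0.11 for all genes, and at 45% to 50% it was -0.26, beside 0.04. At 50% to 55% the medians were -1.08 and -0.10, and at 55% to 66% they were -1.43 and -0.32. The medians of all genes thus still fell as GC content rose, so the offset did not take out the whole trend. How much of that trend the GC-rich members keep was not tested. Summed levels of the licensing and helicase genes were 1290 and 1200 CPM untreated and 413 and 354 CPM with siPIR, whereas those of nucleotide supply were 649 and 586 CPM untreated and 634 and 512 CPM with siPIR. These sums are not corrected for GC content.

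All 6 subunits of the MCM2 to MCM7 ring were lower in both fits, with a median of -2.67 as fitted and -1.46 with the offset. MCM6, whose transcript has a GC content of only 43.1%, stood at 70.1 and 64.8 CPM with siPIR against 126 and 115 CPM untreated, -0.83 ± 0.10 as fitted and -1.66 ± 0.078 with the offset (adjusted p = 5.33e-14). All genes of 35% to 45% GC had a median of 1.39 as fitted, and MCM6 stood against that direction. MCM2 (58.1% GC) stood at 5.9 and 7.45 CPM with siPIR, -4.19 ± 0.13 as fitted and -1.53 ± 0.10 with the offset (adjusted p = 2.19e-11). MCM5 (57.0% GC) stood at 1.25 and 3.54 CPM, -5.29 ± 0.24 as fitted and -2.99 ± 0.20 with the offset (adjusted p = 1.1e-08), and its 2 siPIR libraries differed from each other more, in proportion, than those of the other ring genes. MCM3 was at 36 and 35.2 CPM (-1.40 ± 0.079 with the offset), MCM4 at 74.4 and 55.6 CPM (-1.20 ± 0.12) and MCM7 at 30.8 and 31.4 CPM (-0.51 ± 0.087). No siPIR library reached an untreated one for any ring gene, which held for 29 of the 44 genes and 50.7% of all genes. Without siPIR replicate 2 the value of MCM5 with the offset was -3.82.

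The GINS genes fell with the offset in 4 of 4 cases (32.4% of all genes), with a median of -1.77. GINS4 was at 6.43 and 6.46 CPM (-2.01 ± 0.12), GINS3 at 5.69 and 4.37 CPM (-1.90 ± 0.14) and GINS2 at 7.78 and 6.46 CPM (-1.65 ± 0.13). GINS1 turned with the correction: at 55.6 and 42 CPM against 34.2 and 31.7 CPM untreated it was higher as fitted (0.57 ± 0.13, adjusted p = 0.000954) and lower with the offset (-0.59 ± 0.093, adjusted p = 9.34e-06). CDC45 was at 3.71 and 3.33 CPM (-1.08 ± 0.15 with the offset) and MCM10 at 34.6 and 22 CPM (-1.03 ± 0.16). The MCM10 libraries overlapped with the untreated ones, so its lower value appeared only after correction.

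Among the loading factors, CDT1 (64.9% GC) stood at 0.784 and 1.46 CPM with siPIR against 59 and 50.9 CPM untreated, -5.61 ± 0.20 as fitted and -1.32 ± 0.20 with the offset (adjusted p = 5.16e-06). CDC6 (45.5% GC) stood at 52.4 and 48.7 CPM against 60 and 56.4 CPM, -0.20 ± 0.10 as fitted (adjusted p = 0.075) and -0.58 ± 0.080 with the offset (adjusted p = 1.56e-06). The call on CDC6 thus rested on the correction, while that on CDT1 did not. ORC1 was at 5.22 and 5.15 CPM (-1.19 ± 0.12 with the offset), and ORC6 at 22.3 and 16.6 CPM, 0.00 ± 0.12 with the offset (adjusted p = 0.977), was the licensing gene that passed in neither direction. With the offset 15 of the 16 licensing and helicase genes were lower, beside 32.4% of all genes.

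POLD1 showed the largest difference of the 44 genes. It stood at 0.313 and 0.312 CPM with siPIR against 57.2 and 53.7 CPM untreated, -7.45 ± 0.19 as fitted and -3.16 ± 0.26 with the offset (adjusted p = 6.32e-10). Its transcript has 65.0% GC and its siPIR values rest on counts of 6, the lowest of any member, so the size of the difference is poorly fixed. POLD2 (59.1% GC) was at 4.28 and 5.26 CPM, -4.10 ± 0.13 as fitted and -1.15 ± 0.11 with the offset (adjusted p = 7.96e-09). LIG1 (56.4% GC) was at 3.55 and 3.49 CPM, -3.88 ± 0.13 as fitted and -1.71 ± 0.13 with the offset (adjusted p = 1.33e-10). All 3 stayed lower after correction, at a smaller size. POLD3 was at 13.4 and 12.1 CPM (-1.0 ± 0.12 with the offset), POLE at 13.3 and 13.5 CPM (-1.15 ± 0.091) and FEN1 at 24.1 and 23.1 CPM (-0.35 ± 0.087). Within polymerase epsilon the subunits parted: POLE2 was at 23 and 18.4 CPM against 9.63 and 9.52 CPM untreated, 1.11 ± 0.13 as fitted and 0.42 ± 0.12 with the offset (adjusted p = 0.00356), a call that was lost without siPIR replicate 1.

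Polymerase alpha-primase was lower in 4 of 4 subunits with the offset, beside 32.4% of all genes. POLA1 was at 38.1 and 30.5 CPM (-1.36 ± 0.094) and PRIM2 at 34.9 and 32.8 CPM (-1.05 ± 0.089). PRIM1, at 51.1 and 44.8 CPM against 30.5 and 26.7 CPM untreated, was higher as fitted (0.74 ± 0.11) and lower with the offset (-0.53 ± 0.092, adjusted p = 3.18e-05). POLA2, at 4.6 and 3.18 CPM, was -0.42 ± 0.17 with the offset (adjusted p = 0.0312), and lost its call without siPIR replicate 2 or without either untreated library. The siPIR and untreated libraries of PRIM2 overlapped, so its lower value, too, appeared with the offset. The direction for PRIM1 therefore depended on the correction, and the call for POLA2 on single libraries.

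The clamp and its loader gave mixed values. With the offset 3 of the 5 RFC genes were lower (32.4% of all genes) and none higher (32.7%), with a median of -0.27. PCNA stood at 259 and 202 CPM with siPIR against 148 and 152 CPM untreated, 0.62 ± 0.12 as fitted and 0.25 ± 0.10 with the offset (adjusted p = 0.0393). The call on PCNA with the offset was lost without siPIR replicate 1 or without either untreated library, and its log2 fold change as fitted fell to -0.0033 with total counts alone. RFC1 stood at 227 and 219 CPM against 97.5 and 91.5 CPM, 1.24 ± 0.10 as fitted (adjusted p = 3.59e-08) and 0.10 ± 0.071 with the offset (adjusted p = 0.243). RFC3 (39.1% GC, the lowest of the 44) stood at 81.3 and 60.7 CPM against 30.2 and 28.6 CPM, 1.27 ± 0.13 as fitted and -0.27 ± 0.089 with the offset (adjusted p = 0.0102), so that its direction turned. Without siPIR replicate 2 or untreated replicate 1 the offset call on RFC3 was lost. RFC2 was lower in both fits, at 3.03 and 5 CPM (-1.74 ± 0.15 with the offset). RFC4, at 37.7 and 37.1 CPM, did not pass (-0.16 ± 0.087), and RFC5, at 62.9 and 43.3 CPM (-0.48 ± 0.14), lost its offset call without siPIR replicate 2 or untreated replicate 1. In RPA, RPA1 was at 117 and 126 CPM (-0.40 ± 0.071 with the offset), RPA2 at 32.8 and 37.2 CPM (-0.26 ± 0.083) and RPA3 at 24.8 and 22.4 CPM (0.02 ± 0.11, not passing). The offset call on RPA2 was lost without siPIR replicate 1 or without either untreated library.

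Nucleotide supply had a median close to that of all genes, at -0.11 with the offset. RRM2 stood at 309 and 242 CPM with siPIR against 187 and 160 CPM untreated, 0.67 ± 0.12 as fitted and 0.39 ± 0.10 with the offset (adjusted p = 0.00314). TYMS stood at 104 and 81.6 CPM against 124 and 118 CPM, -0.39 ± 0.11 as fitted (adjusted p = 0.00619) and 0.12 ± 0.10 with the offset (adjusted p = 0.295). DUT stood at 78.6 and 52.4 CPM against 46.4 and 46.9 CPM, 0.49 ± 0.15 as fitted (adjusted p = 0.00764) and -0.11 ± 0.15 with the offset (adjusted p = 0.54). The called differences of TYMS and DUT were not called after correction and their signs turned, and the 2 siPIR libraries of DUT lay far apart. TK1 (62.8% GC) was lower in both fits, at 2.93 and 5 CPM against 182 and 164 CPM, -5.45 ± 0.18 as fitted and -1.60 ± 0.13 with the offset (adjusted p = 2.43e-10). RRM1, at 139 and 132 CPM against 109 and 96.6 CPM, was higher as fitted (0.40 ± 0.10) and lower with the offset (-0.35 ± 0.077, adjusted p = 0.000432), a call lost without untreated replicate 1.

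In chromatin assembly, CHAF1B stood at 8.25 and 7.76 CPM with siPIR against 27.4 and 24.7 CPM untreated, -1.70 ± 0.12 as fitted and -1.45 ± 0.11 with the offset (adjusted p = 2.21e-10). CHAF1A (57.6% GC) stood at 4.96 and 4.53 CPM against 52.1 and 51 CPM, -3.44 ± 0.13 as fitted and -0.91 ± 0.13 with the offset (adjusted p = 2.73e-06). RBBP4, the third subunit of the factor, was at 559 and 499 CPM against 239 and 241 CPM, higher as fitted (1.14 ± 0.10, adjusted p = 1.21e-07) and not past the threshold with the offset (-0.09 ± 0.070, adjusted p = 0.263). UHRF1 stood at 52.2 and 32.2 CPM against 106 and 96.8 CPM, -1.27 ± 0.17 as fitted (adjusted p = 8.83e-06) and 0.39 ± 0.30 with the offset (adjusted p = 0.321). Its 2 siPIR libraries were far apart and its SE with the offset was the largest of the 44 genes.

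Other genes of the pathway with siPIR, with the offset, were lower for 16 of 21 at origins and the fork (3 higher, median -0.44), 7 of 15 around the polymerases (3 higher, -0.43), 15 of 28 in nucleotide supply (8 higher, -0.28) and 8 of 10 in chromatin (1 higher, -0.73), beside 32.4% lower and 32.7% higher over all genes. As fitted the counts stood otherwise, with 5 lower and 14 higher at origins and the fork, 6 and 8 around the polymerases, 16 and 10 in nucleotide supply, and 2 and 7 in chromatin. The shares over all genes in that fit were 46.9% lower and 39.3% higher. RECQL4, a helicase of origin firing, was at 0.47 and 0.625 CPM against 86.8 and 78.7 CPM untreated (-2.83 ± 0.21 with the offset), and CHTF18, of the alternative clamp loader, at 0.313 and 0.104 CPM against 35.7 and 34.8 CPM (-3.09 ± 0.36). RNASEH2A, the catalytic subunit of ribonuclease H2, was at 1.78 and 2.4 CPM against 32 and 31 CPM (-3.03 ± 0.14). These 3 genes stood below 3 CPM in both siPIR libraries. TIMELESS of the fork protection complex (-1.08 ± 0.088), CHTF8 (-1.23 ± 0.092), GMNN (-0.44 ± 0.10), TOP2A (-0.90 ± 0.072), DNMT1 (-0.81 ± 0.076), the pyrimidine synthesis enzyme CAD (-0.69 ± 0.087), IMPDH1 of guanine nucleotide synthesis (-0.39 ± 0.14), ASF1A (-0.84 ± 0.086) and ASF1B (-1.10 ± 0.16) were also lower. Higher were PCLAF, a PCNA-binding protein, at 116 and 71.1 CPM against 17.3 and 16.3 CPM (1.35 ± 0.18), the nucleotide kinase CMPK1 (1.21 ± 0.072), RRM2B (0.57 ± 0.072), DBF4, the partner of CDC7 (0.53 ± 0.080), and the histone chaperone NAP1L1 (0.21 ± 0.078). The topoisomerases TOP1 (0.93 ± 0.074) and TOP2B (0.65 ± 0.0715) were higher too, unlike TOP2A. ORC4 (-0.02 ± 0.076), POLD4 (-0.43 ± 0.39) and DTYMK (-0.13 ± 0.14) did not pass.

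Of 19 E2F and S phase entry genes, which include inhibitors as well as drivers, 5 were lower and 11 higher with the offset, with a median of 0.29 (as fitted 6 and 10, median 0.67). Over all genes 32.4% were lower and 32.7% higher with the offset (median -0.04). As fitted, these shares were 46.9% and 39.3% (median -0.28). E2F5 was at 62.3 and 58.1 CPM against 12.4 and 11.4 CPM untreated (0.62 ± 0.093). E2F1 was at 1.15 and 0.833 CPM against 20.4 and 20 CPM (-0.58 ± 0.24, adjusted p = 0.0385), and E2F2 was lower too (-0.67 ± 0.19), while E2F4 did not pass (0.04 ± 0.10). E2F3, the third activating E2F, was higher in both fits (1.28 ± 0.10 as fitted, 0.84 ± 0.076 with the offset), so the activating E2F genes were not shifted alike. CDKN1A stood at 81.3 and 103 CPM against 132 and 125 CPM, -0.48 ± 0.13 as fitted and 2.17 ± 0.089 with the offset (adjusted p = 1.56e-14), so that its direction turned with the correction, as did those of GMNN (0.28 as fitted), TOP2A (0.71) and ASF1A (1.20).

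The 2 treatments were also compared directly. As fitted, 21 of the 44 genes were lower in siPIR than in SP2509 libraries and 16 were higher, against 45.5% and 38.8% of all genes. With the offset, 21 were lower (37.1% of all genes), 12 were higher (32.6%) and 11 did not pass, with a median of -0.11 beside -0.07 for all genes. As fitted, both shares stood near the background. For the ring genes the offset differences were small except for MCM5 (-1.95 ± 0.21, adjusted p = 1.58e-06), with 2 of 6 lower, none higher and a median of 0.09; MCM2 was the other (-0.32 ± 0.11, adjusted p = 0.0118). Without siPIR replicate 2 the MCM5 difference was -2.81.

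The loading factors differed between the treatments. CDT1 was at 0.784 and 1.46 CPM with siPIR and 85 and 92.6 CPM with SP2509, -6.30 as fitted and -2.32 ± 0.18 with the offset (adjusted p = 1.84e-10). CDC6 was at 52.4 and 48.7 against 110 and 101 CPM, -1.06 as fitted and -1.43 ± 0.080 with the offset (adjusted p = 4.98e-13). Both were lower with siPIR in both fits. POLD1 (-2.30 ± 0.29), RFC2 (-1.22 ± 0.15), ORC1 (-1.12 ± 0.13), LIG1 (-1.07 ± 0.14), GINS3 (-1.04 ± 0.16), POLE (-0.74 ± 0.093), POLD2 (-0.51 ± 0.12) and RPA2 (-0.44 ± 0.083) were lower as well with the offset. So were CDC45 (-0.53 ± 0.16), GINS4 (-0.46 ± 0.14) and PCNA (-0.36 ± 0.10). RFC1 (0.50 as fitted, -0.60 ± 0.071 with the offset) and PRIM2 (0.55 and -0.57 ± 0.093) turned from higher to lower with the correction. With the offset 12 of the 44 genes were higher (32.6% of all genes), among them RFC5 (0.53 ± 0.15), ORC6 (0.44 ± 0.13), POLA1 (0.34 ± 0.10) and PRIM1 (0.28 ± 0.098). With each library left out, RFC5 ranged from 0.27 to 0.79, ORC6 from 0.19 to 0.67, POLA1 from 0.22 to 0.47 and PRIM1 from 0.20 to 0.31. MCM6 (1.0 as fitted, 0.18 ± 0.082 with the offset), MCM10 (0.95 and 0.14 ± 0.17) and GINS1 (1.19 and 0.04 ± 0.098) were called higher only as fitted.

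Higher in siPIR than in SP2509 libraries were genes of thymidylate and nucleotide supply. TYMS was at 104 and 81.6 CPM with siPIR and 44.6 and 45.3 CPM with SP2509 (1.52 ± 0.11 with the offset, adjusted p = 9.53e-10). RRM2 was at 309 and 242 against 107 and 108 CPM (1.06 ± 0.10, adjusted p = 1.42e-07), and DUT at 78.6 and 52.4 against 22.6 and 21.3 CPM (0.96 ± 0.16, adjusted p = 0.000361). All 3 were higher in both fits, whereas RRM1 (-0.65 ± 0.077) and TK1 (-0.56 ± 0.13) were lower with the offset. POLE2 was at 23 and 18.4 against 4.64 and 4.19 CPM (1.56 ± 0.14, adjusted p = 1.06e-09) and RPA3 at 24.8 and 22.4 against 10.6 and 8.15 CPM (1.06 ± 0.12, adjusted p = 6.81e-08). FEN1 (-0.47 as fitted, 0.84 ± 0.091 with the offset) and POLA2 (-0.82 and 0.71 ± 0.19) turned from lower to higher with the correction, and the POLA2 call was lost without siPIR replicate 1. UHRF1 was -0.23 as fitted and 1.32 ± 0.31 with the offset (adjusted p = 0.0228), a call that was lost without either SP2509 library or either untreated one. In chromatin assembly CHAF1B (-0.79 ± 0.12) and CHAF1A (-0.38 ± 0.14) were lower, and the CHAF1A call was lost without siPIR replicate 2 or SP2509 replicate 1.

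Among the other pathway genes set against SP2509 with the offset, CDC7 (1.05 ± 0.11), ORC2 (0.80 ± 0.076), GMNN (1.01 ± 0.11), TOP2B (1.64 ± 0.074) and PCLAF (1.34 ± 0.19) were higher with siPIR. RECQL4 (-2.30 ± 0.23), CHTF18 (-2.68 ± 0.39), RNASEH2A (-2.62 ± 0.15), IMPDH2 (-1.44 ± 0.084), POLD4 (-1.97 ± 0.33) and DNMT1 (-0.87 ± 0.077) were lower. RBL2 (2.24 ± 0.092), HELLS (0.66 ± 0.115), MTBP (0.39 ± 0.11), ASF1A (0.35 ± 0.096) and RRM2B (0.28 ± 0.072) were also higher. E2F1 (-0.68 ± 0.24), E2F4 (-0.55 ± 0.099) and IMPDH1 (-0.35 ± 0.14) were also lower. CCNE2 (0.80 ± 0.43), ASF1B (0.17 ± 0.17), CAD (-0.12 ± 0.088), DTYMK (0.09 ± 0.14) and TOP2A (0.06 ± 0.073) did not pass.

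**Figure D4:**
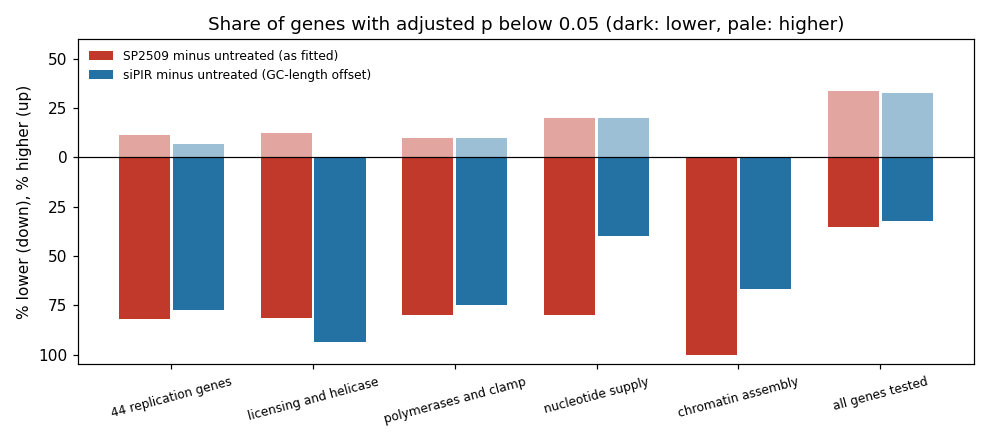
Share (%) of genes called lower (dark bars, downward) and higher (pale bars, upward) than untreated at an adjusted p below 0.05, with SP2509 as fitted (red) and siPIR with the GC-length offset (blue), for the 44 replication genes, each role and all genes tested. Red bars reach furthest down for chromatin assembly (3 of 3 genes lower) and blue bars for licensing and helicase (15 of 16), and for nucleotide supply the blue bar (2 of 5 genes lower) is close to its all-gene level.

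Each treatment was set against the same 2 untreated libraries, so the 2 sets of differences from untreated share their controls. Side by side, with SP2509 as fitted first and siPIR with the offset after it, the ring gene MCM6 stood at -1.83 and -1.66, MCM3 at -1.60 and -1.40, and GINS2 at -1.65 and -1.65. POLA1 stood at -1.66 and -1.36. Opposite signs, each past the threshold, were seen for CDC6 (0.86 and -0.58), CDT1 (0.69 and -1.32), RRM1 (0.28 and -0.35), POLE2 (-1.12 and 0.42) and RRM2 (-0.69 and 0.39). PCNA was higher in both (0.64 and 0.25), and RFC4 passed in neither (0.00 and -0.16). The genes with opposite signs depended on the fit. With siPIR as fitted, RRM1 was higher with both treatments (0.40 for siPIR) and CDC6 did not pass (-0.20). CDT1, POLE2 and RRM2 were still opposite in that fit, and DUT, GINS1, PRIM1 and RFC3 were opposite too.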

How the data were processed

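RNA of 6 HCT116 libraries was sequenced, and the authors deposited a table of estimated counts for 60675 genes, not normalized, in which 23.9% of genes, and 40 of the 44 members, hold a value that is not whole. Per the submitters' processing notes, reads were handled on GRCh38 with HISAT2, featureCounts (Subread 1.6.2), Trimmomatic 0.32, FastQC 0.11.8 and edgeR 3.26.4. The sources used here do not give the annotation release, how strand was set or what made counts fractional. Of the members, 19 share exon bases with another gene, and 21 pseudogenes named after members stood at 0.364 CPM or less.

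Counts were rounded, filtered with filterByExpr, scaled by TMM and fitted with edgeR 4.0.16 (R 4.3.3) by the robust quasi-likelihood test on all 6 libraries as 3 groups, with 3 residual degrees of freedom, so the spread was pooled over groups. P-values were adjusted by Benjamini and Hochberg over the 16503 genes tested, and called below 0.05. Standard errors (SE) follow from each fold change and its F value. A count of 0 allows 3 counts, 0.083 to 0.157 CPM, for counting error only. GC content and length of the longest transcript came from GENCODE 29 (57055 identifiers matched, 158 tested genes without a value). The GC-length offset used natural splines of 5 degrees of freedom. The procedure without the offset was tested on simulated counts that held no trend on GC content or length. Of log2 changes of 1, 84% to 91% were recovered, with 12 to 17 false calls among 16503 genes. The fit with the offset was not tested in this way.

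Members and lists were chosen with earlier results of these data known. Named are, in each comparison and role, the 3 called members with the largest fold change and all called against the majority, 8 genes always (1 of them is not reported here), and up to 4 called genes from each other list. POLE3, POLE4, RBBP4 and E2F3 were added after their values were seen, as further members of complexes or families named. So were TOP1 and TOP2B for siPIR against untreated. Alternatives were 3 scalings, DESeq2 1.42.0, limma-voom 3.58.1, 2 filters, the 4 libraries compared, blocks for the replicate number and for the unexplained number in the sample descriptions, removal of mitochondrial genes, and each library left out; the offset without each library was added after seeing the data.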

Additional observations from a re-analysis of the deposited data

How the results depend on the processing

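Over the 19 planned settings, 34 to 38 members were lower with SP2509 (36 as reported), 25 to 35 were lower with siPIR (27 as fitted), and 20 to 26 were lower in siPIR than in SP2509 libraries (21 as fitted). Called higher with SP2509 were 3 members with total counts alone (5 as reported). Called higher with siPIR were 3 with total counts alone, beside 35 lower, 3 with the GC-length offset and 3 with the replicate block and the offset together (9 as fitted). With the offset itself, a choice added after seeing the data was to leave out each library: members higher with siPIR then ranged from 1 (without siPIR replicate 1) to 6 (without siPIR replicate 2), and members lower from 29 to 34. Over all genes tested the median with SP2509 was -0.43 with total counts alone and -0.27 with upper-quartile scaling (-0.04 as reported), where the members' median was -1.21 and -1.05. For siPIR it was -0.89 and -0.45 (-0.28 as fitted). Of the values of named genes, 757 of 779 kept direction and side of the threshold with SP2509, 796 of 855 with siPIR and 847 of 874 between the treatments.

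Values that changed sign follow. With total counts alone, SP2509 gave -0.11 for RRM1 and -0.11 for RRM2B, and siPIR gave -0.057 for GINS1, -0.0033 for PCNA, -0.14 for DUT and -0.34 for GMNN. DNMT1 with SP2509 was 0.0047 without untreated replicate 1. With the GC-length offset, followed by the value with the replicate block added to it, SP2509 gave DNMT1 0.052 and 0.052 and E2F1 0.099 and 0.098. For siPIR against untreated the same pair was -0.59 and -0.59 for GINS1, -0.27 and -0.27 for RFC3, -0.53 and -0.52 for PRIM1, -0.11 and -0.12 for DUT, 0.12 and 0.12 for TYMS, 0.39 and 0.37 for UHRF1, -0.44 and -0.44 for GMNN, -0.90 and -0.90 for TOP2A, 2.17 and 2.17 for CDKN1A, -0.016 and -0.017 for ORC4, -0.84 and -0.84 for ASF1A, and 0.035 and 0.035 for E2F4. For siPIR against SP2509 it was 0.71 and 0.70 for POLA2, 0.84 and 0.84 for FEN1, 0.40 and 0.41 for CDKN1A, 0.093 and 0.093 for DTYMK, and 0.17 and 0.19 for ASF1B. The first value of each pair differs from the reported fit by subtraction of each library's estimated trend on GC content and length. What produced that trend was not tested.

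Replicate numbers are shared by the groups. Samples of the same number did not deviate together (correlations of -0.0244, -0.0385 and 0.0815 over 16503 genes in the 3 comparisons). Untreated and SP2509 samples of the same replicate number also carry the same unexplained number in their descriptions (11 and 12). The siPIR samples carry 10 and 11, so pairing siPIR by replicate number crosses these numbers. Whether such samples share a culture or a day is not labelled, and correlations between so few libraries cannot settle it. The replicate block alone left 36 members lower and 5 higher with SP2509, 27 and 9 with siPIR, and 21 and 16 between the treatments. A block for the unexplained number instead turned the direction of no named gene in any comparison. Depth limits the GC-rich members in siPIR libraries, where POLD1 rests on counts of 6.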

Other observations

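Genes of S phase entry that the naming rule did not select, among them the inhibitor gene CDKN1B, were chosen here after their values were seen. The cyclin genes CCNE1 and CCNA2 stood at 22.4 and 23.4 and 56.9 and 53.1 CPM untreated. With SP2509 CCNE1 was at 26 and 25.5 CPM and did not pass (0.17 ± 0.10, edgeR adjusted p = 0.154), and CCNA2 at 45.4 and 44.8 CPM (-0.29 ± 0.12, adjusted p = 0.0491). With siPIR CCNE1 was at 22.9 and 25.3 CPM, 0.07 ± 0.10 as fitted and 1.31 ± 0.093 with the GC-length offset, and CCNA2 at 193 and 152 CPM, 1.65 ± 0.12 and 0.63 ± 0.084. The other cyclin E gene, CCNE2, which the rule did select, was -0.83 with SP2509 as fitted (adjusted p = 0.0402) and -0.80 with the offset (adjusted p = 0.191). With siPIR CCNE2 was at 66.7 and 30.3 CPM, 1.87 ± 0.29 as fitted and 0.0 ± 0.38 with the offset. CDK2, their kinase partner, was -0.38 ± 0.10 with SP2509, and -0.60 ± 0.10 as fitted and 0.28 ± 0.082 with the offset for siPIR. CDKN1B, which encodes the inhibitor p27, was at 41.2 and 42.6 CPM untreated, 65 and 66.6 CPM with SP2509 (0.65 ± 0.10) and 202 and 179 CPM with siPIR (2.29 ± 0.083 with the offset).

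The histone chaperone FACT, which travels with the fork, showed unlike values for its subunits. SSRP1 was at 292 and 288 CPM untreated and 365 and 352 CPM with SP2509 (0.31 ± 0.10, adjusted p = 0.0147), while SUPT16H was at 271 and 269 and 228 and 221 CPM (-0.27 ± 0.092, adjusted p = 0.0203). With siPIR SSRP1 was -1.35 ± 0.10 as fitted and -0.54 ± 0.072 with the offset, while SUPT16H turned with the correction, from 0.41 ± 0.092 (adjusted p = 0.00107) to -0.20 ± 0.069. The SUPT16H call with the offset was lost without each library in turn except siPIR replicate 2.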
